A study of Bos taurus with 13 samples.

Results

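bta-miR-103 and bta-miR-107 are a pair of closely related miRNAs, chosen here by their names in the deposited lists, and they are 2 of the 311 bovine miRNAs listed for any group of pools. The vesicles that cells shed into follicular fluid (extracellular vesicles, EVs) were collected from Holstein Friesian cattle, and their small RNA was sequenced in 13 pools. Transient cows (TCs) had high blood concentrations of fatty acids and ketone bodies at weeks 5 and 6 after calving, when they were labelled early negative (3 pools, 11 cows), and were labelled late positive at weeks 9 and 10 (3 pools, 7 cows). Always negative cows (ANCs; 2 pools, 2 cows) and always positive cows (APCs; 2 pools, 2 cows) were sampled at weeks 5 and 6 and kept their energy status throughout the sampling period. Heifers (3 pools, 8 animals) had not calved and were labelled positive. All fluid came from large follicles aspirated by ovum pick-up, and no treatment is given for any group. How the animals of a group were divided among its pools is not given in the sources used here, nor whether TCs of the early pools also entered the late ones, so the p-values measure the spread between pools.

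miR-103 and miR-107 are known for their part in insulin sensitivity: in mouse liver and fat, raising them impairs glucose handling, and caveolin-1, a membrane protein that stabilises the insulin receptor, is one of their targets. They belong to the wider miR-15/miR-107 group, whose members share a core of the seed, the stretch near the 5′ end by which a miRNA recognises its targets. They lie in introns of genes for pantothenate kinases, the enzymes that start coenzyme A synthesis, and so sit beside fatty acid metabolism in the genome. In the RefSeq annotation of the ARS-UCD2.0 assembly, MIR103-1 lay within the span of PANK3, MIR103-2 within PANK2 and MIR107 within PANK1. The mature miRNAs are nearly identical in sequence, and reads were mapped with a mismatch allowed, so the split of reads between them is less certain than their sum.

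Each library held 145030 to 421435 reads assigned to miRNAs, recovered from the deposited values, and 262 miRNAs were listed for all 5 groups. miR-202, a gonad-enriched miRNA, was present in each pool at 2982 to 8014 CPM, the number of reads scaled to a fixed library total, and the summed level of 3 muscle miRNAs stayed between 223.7 and 975.7 CPM. Both members were listed in all 13 pools, with 2110 to 18511 reads for miR-103 and 1597 to 18609 reads for miR-107. Counting error was therefore small beside the difference between pools: the share of miR-103 in the shallowest library, ANCs replicate 2, was 2.84% (95% Wilson interval 2.76 to 2.93%). Such intervals cover counting error only.

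Both miRNAs were abundant and varied widely between pools. Levels are given in CPM on 1 scale for all 13 libraries, set by the trimmed mean of M-values (TMM). In the APCs, miR-103 stood at 34740 and 54480 CPM in replicates 1 and 2. In TCs at weeks 5 and 6 it stood at 23280, 8665 and 63560 CPM in replicates 1 to 3. In the ANCs it was at 9140 and 27610 CPM. The APCs and the third TC pool were thus the 3 highest pools, and the TC pools of weeks 5 and 6 spanned most of the range of the study on their own. In TCs at weeks 9 and 10 miR-103 stood at 5433, 15570 and 8046 CPM. In heifers it stood at 10430, 6888 and 17650 CPM. These groups overlapped each other throughout.

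miR-107 followed nearly the same order of pools with a wider range. Its level was 35460 and 55360 CPM in the APCs. It was 22900, 7405 and 63900 CPM in TCs at weeks 5 and 6. It was 6327 and 24400 CPM in the ANCs. Again no other pool than the third TC pool of weeks 5 and 6 reached the APCs. In TCs at weeks 9 and 10 miR-107 stood at 3991, 13580 and 6778 CPM. In heifers it stood at 8436, 6019 and 15750 CPM. From the lowest pool, TCs at weeks 9 and 10 replicate 1, to the highest, TCs at weeks 5 and 6 replicate 3, miR-103 rose 11.7-fold and miR-107 16.01-fold.

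**Figure D1:**
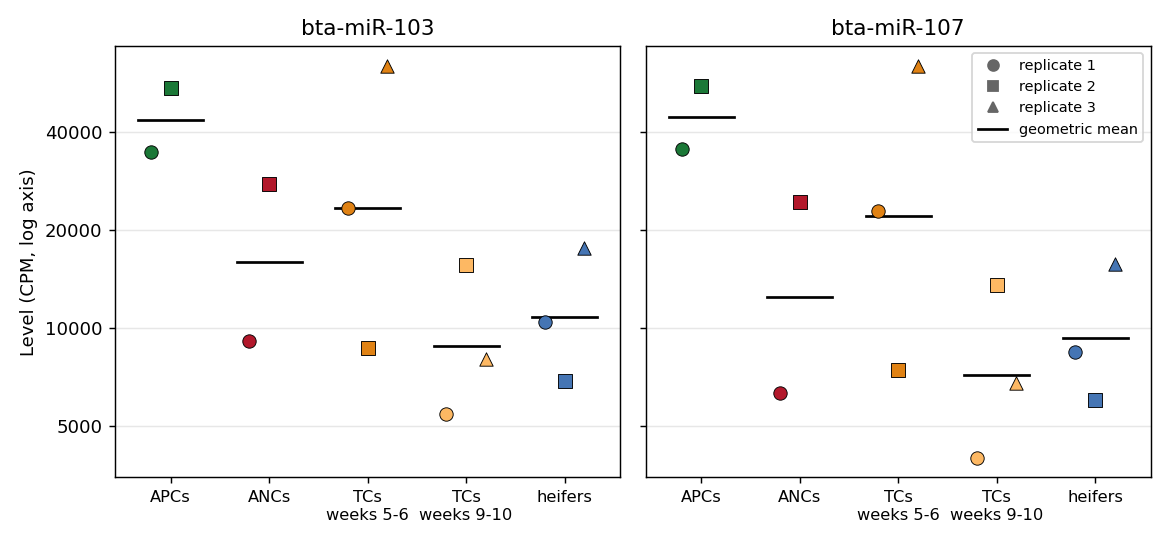
Level of miR-103 (left) and miR-107 (right) in the 13 pools, in CPM on a log axis; each symbol is 1 pool, its shape gives the replicate number and the line is the geometric mean of the group. The APCs lie at 34740 CPM or more for both miRNAs, and the TC pools of weeks 5 and 6 are spread from 7405 to 63900 CPM.

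By their share of all miRNA reads, the pair ran from 1.08% in TCs at weeks 9 and 10 replicate 1 to 10.2% in TCs at weeks 5 and 6 replicate 3, a 9.45-fold range that uses no TMM scaling. Within its library miR-103 ranked between 5th and 34th, and miR-107 between 4th and 43rd. Over all pools their mean levels, 21960 and 20790 CPM, placed them 13th and 14th. Of the miRNAs next to them in mean level, miR-199a-3p ranged 2.75-fold over the pools, miR-361 4.31-fold, let-7f 2.13-fold and miR-23a 8.23-fold. The standard deviation of log2 levels over the pools was 1.153 for miR-103 and 1.298 for miR-107, against a median of 0.58 among the 30 most abundant miRNAs, where they held the 5th and 2nd place.

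The group means of miR-103 were 44610 ± 13960 CPM in APCs (SD, n = 2), 31830 ± 28430 in TCs at weeks 5 and 6 (n = 3), 18380 ± 13060 in ANCs (n = 2), 11660 ± 5486 in heifers (n = 3) and 9683 ± 5263 in TCs at weeks 9 and 10 (n = 3). Those of miR-107, in the same order, were 45410 ± 14070, 31400 ± 29190, 15370 ± 12780, 10070 ± 5066 and 8118 ± 4935 CPM. No neighbours in this order differed by the test used here, as the comparisons that follow show. In the 10 comparisons, the libraries of the 2 groups were scaled together by TMM and tested with limma on log2(CPM + 5), with p-values adjusted over all miRNAs tested by the Benjamini-Hochberg method. A call needed a log2 fold change of 1 or more in size, an unadjusted p under 0.05 and an adjusted p no higher than 0.25. Fold changes come from this scaling and levels from the common scale.

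APCs against heifers compares lactating cows with animals that had not calved, both in positive energy balance. Both miRNAs were higher in APCs: miR-103 by 2.16 on the log2 scale (SE 0.48, 4.47-fold, limma adjusted p = 0.0568) and miR-107 by 2.41 (SE 0.49, 5.31-fold, adjusted p = 0.0568). The 95% intervals ran from 1.01 to 3.31 and from 1.23 to 3.58. Both APC pools lay above all 3 heifer pools for both miRNAs, and the exact two-sided permutation test gave p = 0.1, the smallest it can give with 2 against 3 pools. Both members were called where 12.4% of the 233 miRNAs were called in either direction and 9.44% as higher, and where 36.1% had groups that did not overlap. By size of change miR-107 ranked 10th and miR-103 13th.

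These calls were lost when heifers replicate 1 was left out, and kept when either other heifer pool was. Without heifers replicate 1 the log2 fold changes were 2.11 and 2.31, and the limma adjusted p rose to 0.274 and 0.262, past the limit for a call. Of all calls in this comparison 75.9% were higher in APCs, against 22.2% when libraries were scaled by total counts, a scaling that moved the median of all miRNAs to -0.54. The members stood 2.11 and 2.36 above that median on the log2 scale, against 2.13 and 2.38 with TMM, and were called under both scalings. The summed level of 7 epithelial miRNAs was 5956 to 30240 CPM in APCs and 16390 to 26020 in heifers, that of the erythroid miRNAs (2 listed in APCs, 3 in heifers) was 2137 to 8934 and 1720 to 3968, and that of 6 leukocyte miRNAs was 2144 to 3971 and 4868 to 6077. Of the 7 epithelial miRNAs 2 were called as lower in APCs and 0 as higher, beside 3% and 9.44% of all miRNAs. None of the erythroid and leukocyte miRNAs tested was called. No defining marker of these lists was at 0 in every pool. The part of these sources in the result was not tested, and fewer vesicles of a source and less RNA per vesicle cannot be told apart in such pools.

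APCs against TCs at weeks 9 and 10 sets cows in lasting positive balance, sampled early, beside cows that had returned to it later, so energy history and weeks since calving cannot be told apart. Both miRNAs were higher in APCs, miR-103 by 2.398 (SE 0.48, 5.27-fold) and miR-107 by 2.72 (SE 0.53, 6.59-fold), each at a limma adjusted p of 0.0493. The intervals were 1.23 to 3.56 and 1.438 to 4.002. Both APC pools lay above all 3 TC pools, where 29.7% of all miRNAs tested had groups that did not overlap. The exact permutation test gave p = 0.1, the smallest possible. In this comparison 10% of 229 miRNAs were called, 8.3% as higher and 1.75% as lower, and miR-107 had the 3rd and miR-103 the 7th change by size. Without TCs at weeks 9 and 10 replicate 3 the changes were 2.29 and 2.64 and the limma adjusted p was 0.337 for both, so the call was lost. With total counts 32.6% of all calls were higher, against 82.6%, and the median of all miRNAs moved to -0.55. The members then stood 2.38 and 2.70 above the median and were still called. This comparison and the one with heifers share the APC pools. The epithelial sum of the TC pools was 5713 to 18980 CPM and their erythroid sum 2425 to 10960, and their part was not tested either.

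**Figure D2:**
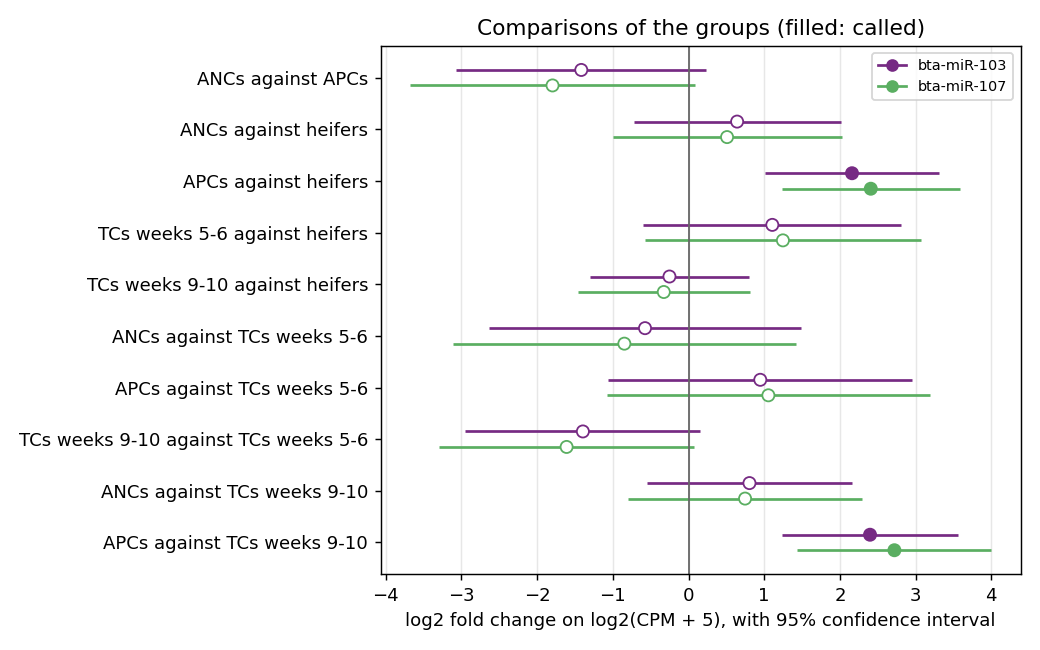
log2 fold changes of miR-103 (purple) and miR-107 (green) in the 10 comparisons, first group against second, with 95% confidence intervals from limma; filled points were called. Both miRNAs were called in APCs against heifers and in APCs against TCs weeks 9-10, and in the other comparisons the intervals include 0.

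ANCs against APCs asks what lasting negative balance goes with at the same weeks. Both miRNAs were lower in each ANC pool than in each APC pool, but the difference was not called. The log2 fold change was -1.42 for miR-103 (95% interval -3.07 to 0.24) and -1.80 for miR-107 (-3.68 to 0.09), with a limma adjusted p of 0.536 for both. Of all 207 miRNAs 43.5% had non-overlapping groups and 0% were called, with 17 at an unadjusted p under 0.05. The exact permutation test cannot go under 0.3333 with 2 against 2 pools. Summed markers of blood cells were also lower in ANCs, with 0 of their miRNAs called: the erythroid sum was 130.7 to 1145 CPM in ANCs and 2137 to 8934 in APCs, and the leukocyte sum 744.8 to 1580 and 2144 to 3971, neither overlapping. The epithelial sum was 5150 to 8503 and 5956 to 30240 CPM. Their part in the members' difference was not tested. Without ANCs replicate 2 the changes of miR-103 and miR-107 were -2.23 and -2.79, and without APCs replicate 1 they were -1.70 and -2.08. Over all 4 pools left out in turn they ran from -2.23 to -0.60 and from -2.79 to -0.81. Each such fit leaves 1 pool in a group, so only the size of the change is given.

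TCs at weeks 5 and 6 against heifers gave 1.107 for miR-103 (95% interval -0.60 to 2.81) and 1.25 for miR-107 (-0.57 to 3.06), neither called at a limma adjusted p of 0.429, where 6.96% of 230 miRNAs were called, 1.74% as higher and 5.22% as lower. TC replicate 2 lay within the heifers' range, replicate 1 just above it and replicate 3 far above it. In this comparison pools of the same number deviated together. With the replicate number as a block the same changes were called, each at a limma adjusted p of 0.0902. The pairing was read from these same data, and the labels do not link the pools of the 2 groups. That call is therefore no independent support. Without TC replicate 2 both miRNAs were also called, at 1.96 and 2.17, and without TC replicate 3 they were not. The blocked fit called 29 miRNAs in all, 48.3% of them higher, against 16 without the block, 25% of them higher. With DESeq2 63.9% of the calls were higher, and with scaling by relative log expression (RLE) factors 46.2%. A fit with a term for the RNA measurement day, which set replicate 1 apart from the other pools, called 0 miRNAs. It left the members at the same changes.

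Between the TC times, both members stood lower at weeks 9 and 10, at -1.40 for miR-103 (95% interval -2.95 to 0.16) and -1.61 for miR-107 (-3.29 to 0.07). The limma adjusted p was 0.573 for both and 0% of 224 miRNAs were called, with 12 at an unadjusted p under 0.05. By size of change they were 3rd for miR-107 and 8th for miR-103. The pools overlapped, since replicate 2 of weeks 5 and 6 lay below replicate 2 of weeks 9 and 10. Without that early pool both were called, at -2.09 and -2.38 with a limma adjusted p of 0.147.

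In the other 5 comparisons neither member was called and the pools overlapped. The changes of miR-103 and miR-107 were 0.95 and 1.05 in APCs against TCs at weeks 5 and 6, and 0.64 and 0.51 in ANCs against heifers. They were 0.81 and 0.75 in ANCs against TCs at weeks 9 and 10, -0.58 and -0.85 in ANCs against TCs at weeks 5 and 6, and -0.25 and -0.33 in TCs at weeks 9 and 10 against heifers. All of their 95% intervals included 0, and the widest, for miR-107 in ANCs against TCs at weeks 5 and 6, ran from -3.12 to 1.42. The share of all miRNAs called was 18.6% for ANCs against heifers, 6.51% as higher, and 35% of those calls were higher against 8.89% with the deposited values. It was 0% by limma in the other 4, with 6 to 24 miRNAs at an unadjusted p under 0.05.

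The ratio of the members was not constant. Reads of miR-103 per read of miR-107 were 0.980 and 0.984 in the APCs, with 95% Wilson intervals from 0.953 to 1.01 and from 0.963 to 1.01. In the ANCs they were 1.45 and 1.13, in heifers 1.24, 1.14 and 1.12, and 1.36, 1.15 and 1.19 in the late TC pools. In the early TC pools they were 1.02, 1.17 and 0.995. The pools with the lowest ratios were thus the 4 in which the pair was at 46180 CPM or more, other than ANCs replicate 2. None of the 10 comparisons of the ratio passed, with an exact two-sided permutation p of 0.1 at the lowest and 0.476 after adjustment over the 10. With 2 or 3 pools in a group the test cannot go under 0.1, or 0.3333 with 2 against 2, so none could have passed. The APC ratios lay below those of all pools of the other groups.

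Over the 13 pools the log2 levels of miR-103 and miR-107 had a Pearson r of 0.997 and a Spearman rho of 0.984, each with a permutation p of 1e-05, the smallest that 100000 resamples can give (adjusted 5e-05 over the 5 relations computed). Their summed level and their ratio had an r of -0.837 (permutation p = 0.00046, adjusted 0.000883) and a rho of -0.835 (permutation p = 0.00078, adjusted 0.00195). Sum and ratio are built from the same 2 miRNAs, and miR-107 varied more (SD of log2 levels 1.298 against 1.153). A negative r follows from that, so its p-values are no evidence of a further relation. These relations were chosen after the values were seen. Without the 2 pools farthest from the median level, TCs at weeks 5 and 6 replicate 3 and APCs replicate 2, r was 0.994 for the levels and -0.778 for the ratio. After removal of group means r was 0.997 and -0.811, and among the 8 pools numbered 2 or 3 it was 0.999 and -0.912. No value is given for the 5 pools numbered 1, which were taken as too few for a correlation. Library depth had an r of 0.09 with the summed level (permutation p = 0.779, adjusted 0.779) and -0.345 with the ratio (permutation p = 0.247, adjusted 0.308). Without the 2 libraries farthest from the median depth these were 0.279 and -0.507, and after removal of group means -0.221 and 0.224, so neither kept its sign.

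**Figure D3:**
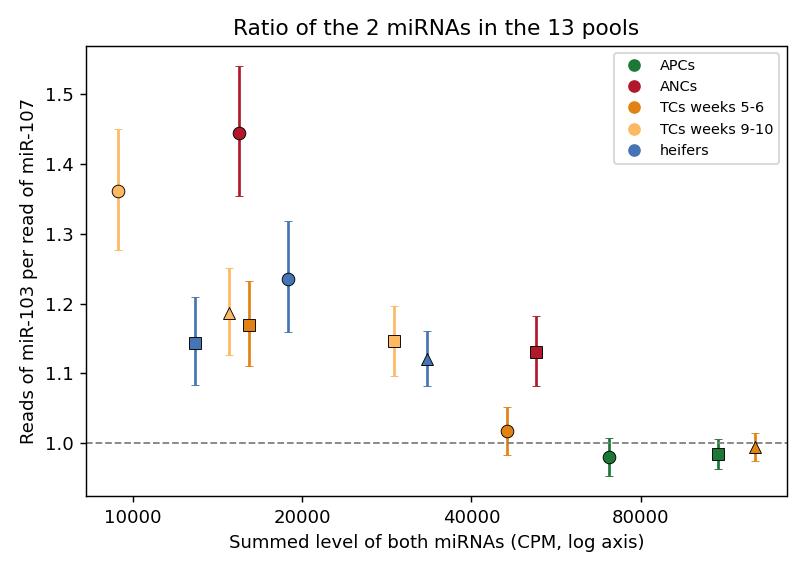
Reads of miR-103 per read of miR-107 (vertical axis, with 95% Wilson intervals for counting error) against the summed level of both in CPM (log axis) in the 13 pools, coloured by group; circles, squares and triangles are replicates 1, 2 and 3. The ratio runs from 1.45 in ANCs replicate 1 to 0.980 in APCs replicate 1, with the lower ratios at the higher levels.

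Among 165 miRNAs with a mean of at least 100 CPM, the 5 whose log2 levels went most closely with the mean of the members over the 13 pools were miR-22-3p (r = 0.990), miR-23b-3p (0.984), miR-23a (0.974), miR-320a (0.965) and miR-873 (0.917). The median r of all 165 was -0.04, and 17 exceeded 0.8. The 5 were picked as the highest, and all values share the libraries and their scaling, so the values are a description. On shares of reads, with no TMM factor, they were 0.984, 0.979, 0.963, 0.950 and 0.900. Without TCs at weeks 5 and 6 replicate 3 and APCs replicate 2 they lay between 0.886 and 0.985.

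All 5 were also called as higher in APCs in the comparisons in which the members were, which their choice by likeness over the same pools, the APCs included, largely fixed, so these values are a description too. Against heifers the log2 changes were 2.01 for miR-22-3p, 2.52 for miR-23b-3p, 2.07 for miR-23a, 2.37 for miR-320a and 3.01 for miR-873. Against TCs at weeks 9 and 10 they were 2.15, 2.66, 2.26, 2.24 and 2.81 in that order. These 5 and the members made up 26.9 to 27.1% of the miRNA reads in APCs, 5.09 to 13.4% in heifers, 5.15 to 12.1% in TCs at weeks 9 and 10, 8.99 to 21.1% in ANCs and 8.10 to 32.1% in TCs at weeks 5 and 6. miR-320a, which is made without the Drosha step of the usual pathway, was the most abundant of them at a mean of 72470 CPM.

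**Figure D4:**
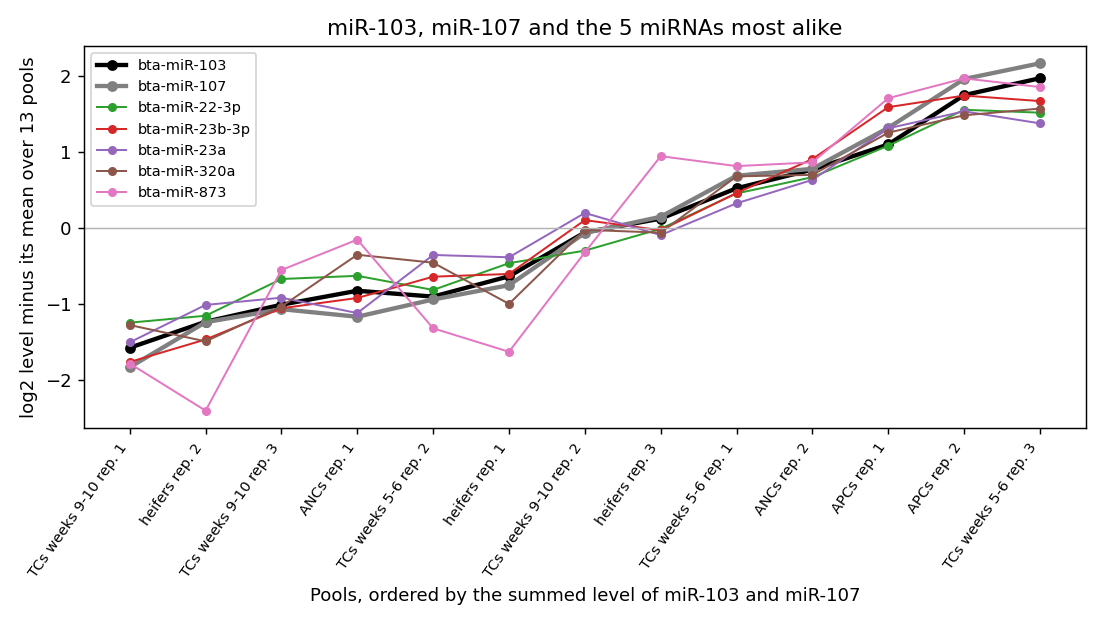
log2 level of miR-103 (black), miR-107 (grey) and the 5 miRNAs most alike (coloured), each less its own mean over the 13 pools, with pools ordered by the summed level of miR-103 and miR-107. The lines climb together from TCs at weeks 9 and 10 replicate 1 to the APC pools and TCs at weeks 5 and 6 replicate 3, with miR-873 the most uneven of them.

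Of 9 further members of the miR-15/miR-107 group by name, 8 were listed and all 8 were tested. None was called in APCs against heifers or in APCs against TCs at weeks 9 and 10, where their median changes were -0.13 and -0.16 against 0.03 and 0.00 for all miRNAs. With 12.4% and 10% of all miRNAs called in either direction, 0 of 8 is near the background. miR-16b, the most abundant of them and a known brake on the cell cycle, stood at 26500 to 47200 CPM in APCs and 49800 to 72370 in heifers, a change of -0.69 (limma adjusted p = 0.443). Over the 13 pools its r with the members was -0.752 and that of miR-16a -0.655, while that of miR-15a was 0.752. miR-424-5p, a follicular miRNA of the group, was called as higher in ANCs than in heifers by 1.66 (limma adjusted p = 0.0749), the 1 call among these 8 in the 10 comparisons. In that comparison 18.6% of all miRNAs were called, 6.51% as higher.

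miR-103 and miR-107 made up 53.3 and 73.9% of the summed level of these 10 miRNAs in the APCs, and 12.8 to 32.01% in heifers. The share was 8.65 to 33.2% in TCs at weeks 9 and 10, 24.0 to 72.5% in TCs at weeks 5 and 6. It was 22.25 and 54.1% in the ANCs. The other 8 miRNAs summed to 38810 and 61480 CPM in APCs and to 70950 to 87740 CPM in heifers. The APCs and the heifers did not overlap in either quantity, in a comparison where 36.1% of all miRNAs tested did not overlap. The share is built from the levels of miR-103 and miR-107, which themselves did not overlap. It is therefore no separate observation.

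**Figure D5:**
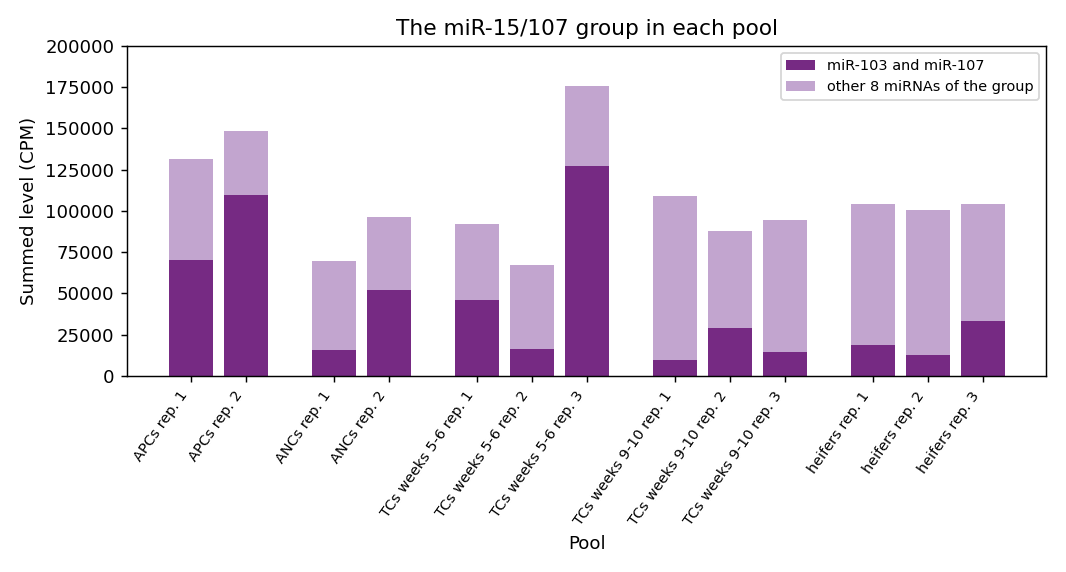
Summed level in CPM of miR-103 with miR-107 (dark) and of the other 8 listed miRNAs of the miR-15/miR-107 group (light), stacked for each of the 13 pools. The dark part is over 50% of the bar in both APC pools, in TCs at weeks 5 and 6 replicates 1 and 3 and in ANCs replicate 2, and at most 33.2% in the other pools.

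Of 13 miRNAs listed as acting on insulin or glucose, 12 were listed in a group and 11 were tested. In each comparison where the members were called, 1 of the 11 was called as higher and 0 as lower, beside 9.44% and 8.3% of all miRNAs called as higher, so the list's share was near that of all miRNAs. The 1 called was miR-26a, a regulator of insulin sensitivity in the liver, which was higher in APCs by 1.504 against heifers (limma adjusted p = 0.0568) and by 1.22 against TCs at weeks 9 and 10 (limma adjusted p = 0.115). The median change of the 11 was 0.20 and 0.23. miR-122, the main liver miRNA, stood at -2.28 in APCs against heifers without being called (limma adjusted p = 0.292). miR-26a had an r of 0.744 with the members over the 13 pools, and miR-122 one of -0.07.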

How the data were processed

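Small RNA of follicular fluid EVs was measured in 13 pools, 1 library each. Per the methods of the study and the labels, the authors made QIAseq miRNA libraries, trimmed adaptors with Cutadapt 1.11, mapped reads to UMD3.1 with Bowtie2 2.2.2 and annotated them against miRBase. The deposited values are CPM normalized by the authors with TMM. Where a library's total passed what CPM can sum to, the deposited column was recorded as a signal, made in the same way. Each library's smallest value step gave whole reads, and all 3681 values came out whole within 0.1 read. A miRNA with 3 reads stood at 7.9 to 19.0 CPM.

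Reads of miRNAs listed for both groups were scaled by TMM (edgeR 4.0.16), filtered with filterByExpr (minimum count 10, minimum total 15) and tested with limma 3.58.1 with a mean-variance trend on log2(CPM + 5), over the libraries of the 2 groups. The pseudocount understates changes of low miRNAs. Scripts were tested on simulated data. Alternatives were edgeR's quasi-likelihood test, DESeq2 1.42.0, other scalings, pseudocounts of 1 and 20, no filter, a replicate block, the day of RNA measurement, all groups in 1 fit and each pool left out. TMM after the filter was added after seeing the data. The day term set replicate 1 of each group apart from its other pools. The day of 1 APC library is not given in the sources used here, so that term was not fitted for APCs.

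Same-numbered pools of TCs at weeks 5 and 6 and of heifers deviated together from their group means (r of 0.216, 0.377 and 0.385 for replicates 1 to 3). The numbers, taken from the labels, were read as pairing there only. The r was higher in APCs against TCs at weeks 9 and 10 (0.504 and 0.495) and in ANCs against them (0.402 and 0.5). In a group of 2 pools the deviations from the mean mirror each other. The 2 values of each of these comparisons are thus nearly a single reading. The labels do not link the pools of different groups, so the pairing is uncertain. The members and the lists were chosen with earlier results of these data known. Named miRNAs were the members, the miR-15/miR-107 group, the 5 most alike in level, the neighbours in mean level, and miRNAs of the insulin list called where a member was. Named outside this rule, after their values were seen, were miR-122 and those in the closing section, and miR-202 was named as the gonad marker. Lists of liver and muscle miRNAs were summed too: miR-122 stood at 631.3 to 5858 CPM in APCs and 5369 to 17620 in heifers.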

Additional observations from a re-analysis of the deposited data

How the results depend on the processing

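Of 356 alternative values of the members' changes, 323 kept their direction and their side of the threshold. In both comparisons with calls, the members stayed called under the 12 alternatives other than leaving each pool out. Their changes were 1.57 to 2.54 for miR-103 and 1.82 to 2.82 for miR-107 in APCs against heifers. In APCs against TCs at weeks 9 and 10 they were 1.83 to 2.44 and 2.15 to 2.77. Where groups differ in number of pools, the replicate block fits the unmatched pool exactly. That pool then adds nothing to the change, so the block does not use all pools there. The highest values against heifers came from this block. With the replicate block, ANCs against APCs was called at -1.42 and -1.80 (limma adjusted p 0.2003 and 0.181). Both members were called in TCs at weeks 5 and 6 against heifers at 1.107 and 1.25. miR-103 was called in ANCs against heifers at 1.02, and in ANCs against TCs at weeks 5 and 6 it turned to 0.11. These last fits in effect drop the unmatched pool of the larger group, so block and lost pool cannot be told apart. Blocked fits with ANCs or APCs also leave very little from which to estimate the spread between pools. The block changed no other call. The numbers were read as pairing only in TCs at weeks 5 and 6 against heifers. Same-numbered pools correlated more in ANCs and in APCs against TCs at weeks 9 and 10 (r of 0.402 to 0.504), where they were not. DESeq2 called both in TCs at weeks 5 and 6 against heifers (1.56 and 1.75) and between the TC times (-1.74 and -1.98). Between the TC times its adjustment covered only 77 miRNAs, against 224 with limma.

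Leaving out each pool in turn gave, for miR-103 and miR-107, -2.23 to -0.60 and -2.79 to -0.81 for ANCs against APCs, -0.19 to 1.52 and -0.50 to 1.56 for ANCs against heifers, 1.84 to 2.54 and 2.10 to 2.82 for APCs against heifers, and 0.44 to 1.96 and 0.54 to 2.17 for TCs at weeks 5 and 6 against heifers. It gave -0.64 to 0.10 and -0.76 to 0.084 for TCs at weeks 9 and 10 against heifers, -1.45 to 0.32 and -1.90 to 0.22 for ANCs against TCs at weeks 5 and 6, and 0.22 to 1.61 and 0.26 to 1.76 for APCs against TCs at weeks 5 and 6. It gave -2.09 to -0.69 and -2.38 to -0.86 between the TC times, -0.022 to 1.71 and -0.26 to 1.82 for ANCs against TCs at weeks 9 and 10, and 2.00 to 2.77 and 2.25 to 3.15 for APCs against TCs at weeks 9 and 10. The sign turned without ANCs replicate 2 (against heifers and against TCs at weeks 9 and 10), without ANCs replicate 1 or, for miR-103, TC replicate 3 (ANCs against TCs at weeks 5 and 6), and without TC replicate 1 or heifers replicate 3 (TCs at weeks 9 and 10 against heifers). A pool left alone in its group was assumed to vary like the other group.

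Over all miRNAs, total counts gave 63 calls and the deposited values 49 in APCs against heifers, against 29, and 43 and 36 against 23 in APCs against TCs at weeks 9 and 10. In TCs at weeks 5 and 6 against heifers DESeq2 gave 36, total counts 26 and the block 29, against 16. In ANCs against heifers the block gave 65 against 40, from a fit that in effect drops a heifer pool. Blocked fits with ANCs, here and in what follows, leave very little from which to estimate the spread between pools. Where no miRNA was called, the highest counts were 28 with the block for ANCs against APCs, 27 with the block for ANCs against TCs at weeks 9 and 10, 14 with DESeq2 for TCs at weeks 9 and 10 against heifers and 8 with DESeq2 between the TC times. The last count was out of 77 miRNAs with an adjusted p, against 224 with limma. The causes of the differences in counts were not tested. With 2 or 3 pools in a group, precision is set by the number of pools rather than by reads.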

Other observations

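At the other end of the likeness scale, 3 miRNAs went most against miR-103 and miR-107 over the 13 pools and were named after their values were seen. miR-3431, a ruminant miRNA, had an r of -0.933 with the mean log2 level of the members and lay between 430.8 CPM in APCs replicate 2 and 1739 CPM in TCs at weeks 9 and 10 replicate 1. miR-224, a miRNA known from granulosa cells, had an r of -0.906 and lay between 1009 and 2661 CPM in the same pools. miR-190b had an r of -0.875 and lay between 390.8 CPM in APCs replicate 2 and 1465 CPM in TCs at weeks 5 and 6 replicate 2. On shares of reads, with no TMM factor, these values were -0.927, -0.910 and -0.905.

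The TMM factor of a library, which corrects its scale for how reads are spread among miRNAs, also went with the pair. Its log2 had an r of -0.792 with the log2 share of reads of both members (n = 13, permutation p = 0.00053, adjusted 0.000883 over 5 relations) and a Spearman rho of -0.714 (permutation p = 0.0077, adjusted 0.0128). The factor is computed from the same reads that hold the pair. The permutation takes no account of this coupling, so these values are a description. Without TCs at weeks 5 and 6 replicate 3 and APCs replicate 2, r was -0.647, and after removal of group means it was -0.620. The lowest factors were 0.711 in APCs replicate 2 and 0.803 in TCs at weeks 5 and 6 replicate 3. Their part in the members' levels was not tested, and the range of the shares of reads does not use them.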
